A study of Mus musculus with 12 samples.

Results

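The genes described here are 8 genes of mineralised bone matrix and of the osteocyte, the cell that osteoblasts become once they are buried in bone: Spp1, Ibsp, Dmp1 and Mepe of the SIBLING family, and Fam20c, Phex, Pdpn and Sost. They were taken from a list of names and are 8 of the 23358 rows of the deposited count table, each on 1 row. RNA sequencing was done on 12 samples of newborn mouse skull, taken at postnatal day 3 from the frontal bone, with its coronal and frontonasal sutures and the adjoining nasal bone. There were 4 groups of 3 samples. On the C57BL/6 strain, wild type mice were replicates 1 to 3 and heterozygous FGFR2C342Y/+ mice were replicates 4 to 6. On the BALB/c strain, wild type mice were replicates 13 to 15 and FGFR2C342Y/+ mice were replicates 16 to 18. The mutant allele changes a cysteine of the FGF receptor FGFR2 (C342Y), as in Crouzon syndrome, in which skull sutures close early. The labels name no tissue-specific driver for the allele, and the counts do not separate the mutant from the normal transcript. The study asked how strain changes the response of cranial tissue to this mutation.

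SIBLING proteins are small, acidic, secreted glycoproteins that bind calcium and mineral, and most carry an RGD motif that integrins bind. Their genes lie side by side in mammals. Spp1 encodes osteopontin, which inhibits mineral growth when phosphorylated and helps osteoclasts attach. Ibsp encodes bone sialoprotein, which promotes mineral nucleation, and Dmp1 and Mepe encode matrix proteins made largely by late osteoblasts and osteocytes. FAM20C is the kinase of the secretory pathway that phosphorylates SIBLING proteins. PHEX is a membrane endopeptidase of osteoblasts and osteocytes, whose loss causes X-linked phosphate wasting. Podoplanin (Pdpn) marks the osteocyte as it extends its first processes, and sclerostin (Sost) is the Wnt inhibitor secreted by mature osteocytes.

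The positions below are those of the authors' table. The 4 SIBLING members lay on chromosome 5 in the order Dmp1 (104202617 to 104214102), Ibsp (104299287 to 104311472), Mepe (104325329 to 104338611) and Spp1 (104435111 to 104441053). With Dspp, the remaining SIBLING gene (104170712 to 104180127), they spanned 270.3 kb. Fam20c lay on the same chromosome at 138755081 to 138810063, Pdpn on chromosome 4 at 143267422 to 143299507, Sost on chromosome 11 at 101962458 to 101967015, and Phex on chromosome X at 157162075 to 157415286. The microRNA row Mir684-1 overlapped Sost, so reads in the shared stretch could be assigned to either gene.

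The 250 bases upstream of the start site are shown for the 4 clustered genes, because 3 of them rose together in C57BL/6 mutants, and for Sost, whose promoter resembled that of Dmp1 in the letters searched while its RNA followed another pattern. The sequences come from RefSeq (GRCm38.p6), which held all 8 genes. RefSeq lists 2 start sites each for Spp1 and Dmp1, and the window shown is that of the site where the authors' table starts the gene. The other site of each was not searched. They are written 5′ to 3′ on the strand of the gene, and capitals mark the motifs searched on both strands. The RUNX core searched was ACCACA, which reads TGTGGT from the opposite strand. The CCAAT box reads ATTGG from there. The TATA-like box TTTAAA is the same on both strands.
Spp1 chr5:104434861-104435110 (+): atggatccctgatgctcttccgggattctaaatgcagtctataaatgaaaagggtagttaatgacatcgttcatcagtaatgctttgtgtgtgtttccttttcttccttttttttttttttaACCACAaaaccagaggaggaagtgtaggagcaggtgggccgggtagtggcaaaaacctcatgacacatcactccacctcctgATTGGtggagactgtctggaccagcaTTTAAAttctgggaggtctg
Ibsp chr5:104299037-104299286 (+): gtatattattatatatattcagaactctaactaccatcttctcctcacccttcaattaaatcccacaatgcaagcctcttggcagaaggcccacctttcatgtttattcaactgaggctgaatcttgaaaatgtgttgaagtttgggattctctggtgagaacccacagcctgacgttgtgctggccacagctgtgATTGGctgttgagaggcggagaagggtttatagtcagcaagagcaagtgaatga
Dmp1 chr5:104202367-104202616 (+): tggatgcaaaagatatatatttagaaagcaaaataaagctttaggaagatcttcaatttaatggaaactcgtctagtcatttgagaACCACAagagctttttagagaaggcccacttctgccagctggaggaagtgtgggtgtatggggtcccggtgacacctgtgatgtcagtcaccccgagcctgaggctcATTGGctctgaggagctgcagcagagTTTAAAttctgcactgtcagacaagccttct
Mepe chr5:104325079-104325328 (+): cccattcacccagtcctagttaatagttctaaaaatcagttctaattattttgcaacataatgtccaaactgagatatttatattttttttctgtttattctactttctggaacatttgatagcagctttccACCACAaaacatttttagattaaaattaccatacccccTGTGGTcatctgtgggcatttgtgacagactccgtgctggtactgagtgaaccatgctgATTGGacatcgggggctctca
Sost chr11:101967016-101967265 (-): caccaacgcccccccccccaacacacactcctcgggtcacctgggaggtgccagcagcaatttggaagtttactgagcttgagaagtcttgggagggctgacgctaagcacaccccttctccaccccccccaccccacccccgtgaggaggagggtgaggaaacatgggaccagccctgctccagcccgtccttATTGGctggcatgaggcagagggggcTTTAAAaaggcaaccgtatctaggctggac
Each of these 5 windows held ATTGG, the CCAAT box read on the opposite strand, within the last 60 bases before the start. It ended 42 bases before the start in Spp1, 50 in Ibsp, 53 in Dmp1, 17 in Mepe and 52 in Sost. Of all 32851 RefSeq windows of this length, 33.8% held a CCAAT box on either strand and 5.91% held ATTGG in the last 60 bases. That limit was set after the matches were seen and Sost was shown for its resemblance to Dmp1, so nothing is read from 5 of 5 beside this share. Over all 8 members, 5 held ATTGG there. TTTAAA followed it in Spp1 (ending 15 bases before the start), Dmp1 (26) and Sost (25), and 4.12% of all windows held a CCAAT box and a TTTAAA box. ACCACA or its opposite strand was in Spp1, Dmp1 and Mepe, and in 14% of all windows. No 2 of these matches overlapped. Of the 3 members whose windows are not shown, Phex and Pdpn held only TTTAAA (56 to 51 and 49 to 44 bases before the start), and Fam20c held only CCAAT, on its own strand, 73 to 69 bases before the start. Dmp1 and Sost thus carried ATTGG and TTTAAA at nearly the same places. A match is a description of letters, and no binding was measured.

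Gene counts summed to between 27181658 and 46521546 per sample. They made up 75.6% to 80.7% of the library total implied by the deposited RPKM values in C57BL/6 and 86.4% to 88.0% in BALB/c, lowest in C57BL/6 wild type replicate 1. This share moves with strain, and its part in the strain contrasts was not tested. The run names in the descriptions place the strains on different flow cells, and the effects of strain and flow cell cannot be told apart. Y-linked genes were high in all 3 C57BL/6 wild type samples and in 1 of 3 samples of each other group. The labels gave no sex. C57BL/6 mutant replicate 4 stood apart from replicates 5 and 6 on the first principal component of all genes (-69.2 against 22.5 and 16.3, with C57BL/6 wild type at -116.7 to -89.6 and BALB/c samples at 49.4 to 60.2). Nothing in the labels says whether replicates came from separate litters, so the p-values measure the spread between these samples. The tissue is a mixture of cells, in which fewer cells of a type and less RNA per cell cannot be told apart. Markers of osteoblasts were abundant, at a summed 107000 to 248000 CPM (counts per 1000000, with libraries scaled by the trimmed mean of M values, TMM). The type I collagen genes Col1a1 and Col1a2 made up 98.7% to 99% of that sum, so the other 8 osteoblast markers are summed apart from them below. Markers of osteoclasts, cartilage, erythroid cells and epithelium were also present.

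Osteopontin RNA dominated the set. Spp1 averaged 9352 CPM over the 12 samples, the 7th highest mean in the table, and took 0.577% to 1.18% of all counts. Per kilobase of the table's gene length, the mean levels were 5641 CPM per kb for Spp1, 908.6 for Ibsp, 461 for Dmp1, 51.1 for Mepe, 48.78 for Phex, 39.13 for Sost, 26.63 for Fam20c and 25.97 for Pdpn. Spp1, Ibsp and Dmp1 kept the first 3 places, in this order, in all 12 samples. Further down the order changed: Mepe exceeded Phex in 6 of 12 samples, Phex exceeded Sost in 6, Sost exceeded Fam20c in 9 and Fam20c exceeded Pdpn in 8. Mepe exceeded Phex in every BALB/c sample and in no C57BL/6 sample. Phex exceeded Sost in every C57BL/6 sample and in no BALB/c sample. Sost was below Fam20c only in the C57BL/6 mutants. The 3 highest genes thus stood apart from the other 5, whose samples all lay between 16.65 and 76.51 CPM per kb. Sost varied most, by 4.05-fold between its lowest and highest sample, and Fam20c least, by 1.76-fold.

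**Figure D1:**
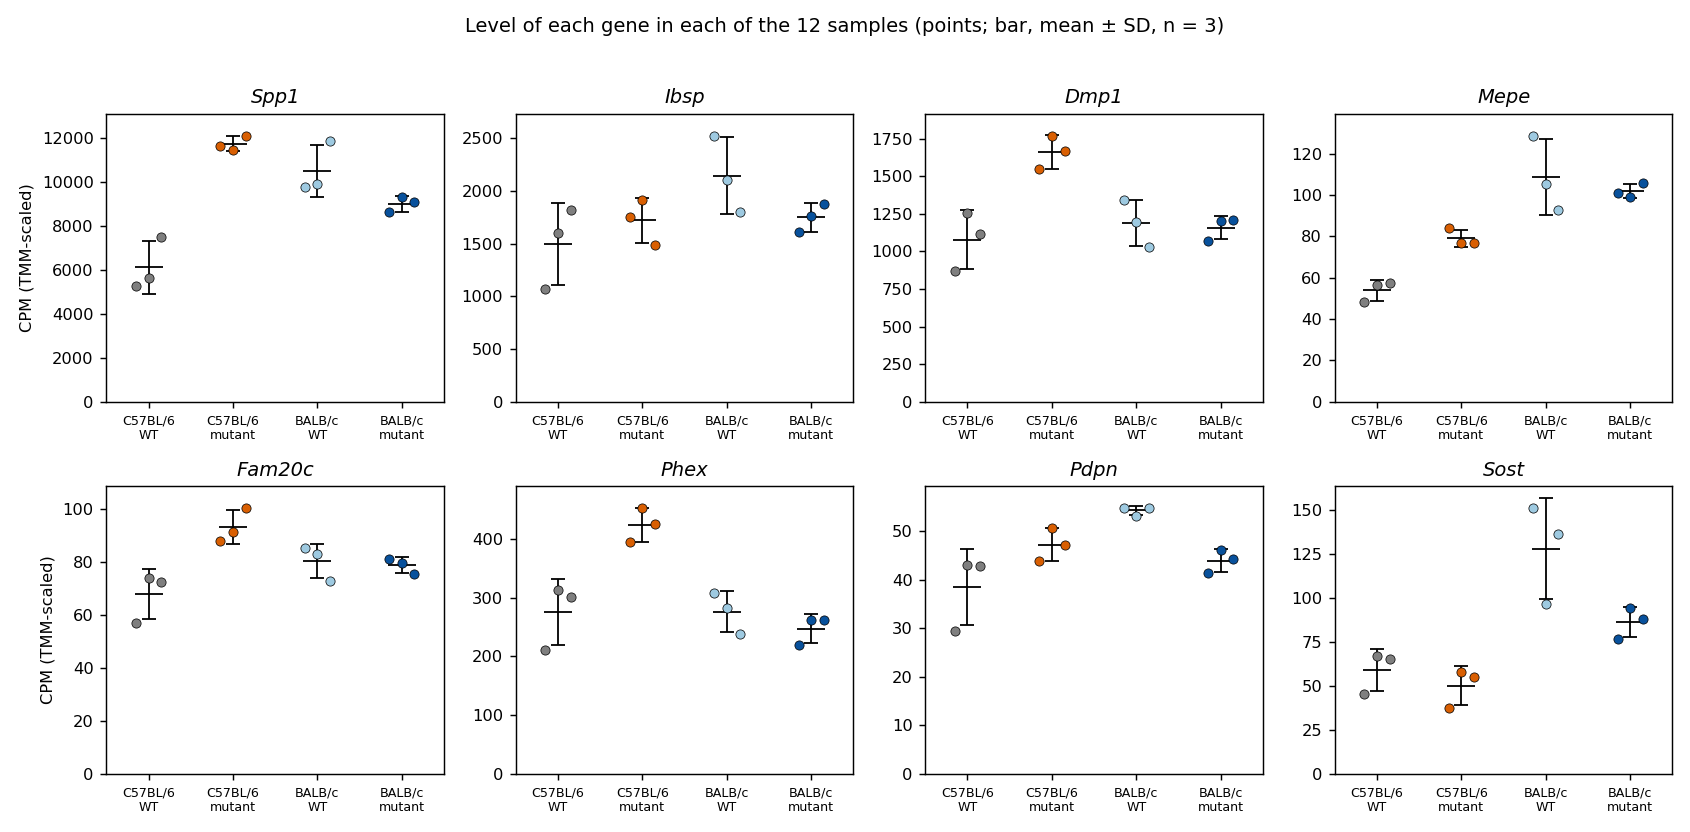
Level of each of the 8 genes in CPM (TMM-scaled, vertical axis from 0) in the 4 groups; points are samples and bars the mean ± SD (n = 3). C57BL/6 mutants lie above C57BL/6 wild type without overlap for Spp1, Dmp1, Mepe, Fam20c, Phex and Pdpn, as did 19.7% of all genes tested, while in BALB/c the mutants lie below wild type without overlap for Spp1, Pdpn and Sost, as did 10% of all genes tested.

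In C57BL/6, the mutation was compared with wild type on the same flow cell. Spp1, Dmp1, Mepe, Phex and Fam20c rose in mutants, by 1.38-fold to 1.92-fold, and no member fell. These 5 of 8 members passed edgeR's quasi-likelihood test with Benjamini-Hochberg adjustment at 0.05 over all 16190 genes tested. Across all genes, 11.3% were called higher and 12.6% lower in this comparison. The median log2 fold change of the 8 members was 0.51, beside 0 over all genes tested, and 7 of 8 were positive. The count stayed at 5 when any of the 6 C57BL/6 samples was left out, and was 2 (Spp1 and Mepe) when only these 6 samples entered the fit.

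Among the 4 SIBLING members, Spp1 had the largest estimate. Its level was 5254, 5615 and 7491 CPM in the wild type samples and 11646, 11468 and 12122 CPM in the mutants. The mutants were all above the wild type and close together, at 11750 CPM ± 338 (SD, n = 3) against 6120 CPM ± 1200 (SD, n = 3). The rise was 1.92-fold (log2 0.94, SE 0.123, 95% interval 0.671 to 1.21, adjusted p = 0.000662). Dmp1 was at 870, 1255 and 1113 CPM in wild type and at 1548, 1771 and 1669 CPM in mutants. The groups did not overlap, and wild type replicate 1 was the lowest of the 12 samples. Dmp1 thus rose 1.54-fold (log2 0.62, SE 0.130, adjusted p = 0.00697). Mepe, the source of acidic peptides that bind mineral, was at 48.1, 56.4 and 57.3 CPM in wild type and 83.8, 76.9 and 76.5 CPM in mutants. Its groups were separate, and it rose 1.47-fold (log2 0.55, SE 0.105, adjusted p = 0.00449).

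Ibsp, between Dmp1 and Mepe on the chromosome, did not pass. Its wild type samples were at 1070, 1595 and 1822 CPM and its mutants at 1755, 1917 and 1487 CPM. The ranges overlapped, and the log2 fold change was 0.20 (SE 0.179, 95% interval -0.188 to 0.591, adjusted p = 0.437). The interval includes the change measured for Mepe but not that for Spp1.

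The kinase and the endopeptidase that act on these proteins rose as well. Fam20c was at 56.9, 73.8 and 72.5 CPM in wild type and at 87.8, 91.2 and 100.3 CPM in mutants. All 3 mutants exceeded all 3 wild type samples (log2 fold change 0.46, SE 0.0955, adjusted p = 0.00674). Phex was at 211, 314 and 301 CPM in wild type and at 394, 453 and 425 CPM in mutants. These groups did not overlap either (log2 0.62, SE 0.142, adjusted p = 0.0102), and the estimate was as large as that of Dmp1.

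The 2 markers that bracket osteocyte maturation, Pdpn early and Sost late, did not pass. Pdpn was at 29.5, 43.1 and 42.8 CPM in wild type and 43.8, 50.6 and 47.1 CPM in mutants, with no overlap. Its log2 fold change was 0.30 (SE 0.119, adjusted p = 0.0872). Sost was at 45.4, 67.1 and 65.0 CPM in wild type and at 37.4, 57.8 and 54.8 CPM in mutants. Without overlap between the C57BL/6 genotypes there were thus 6 members, all higher, beside 19.7% of all genes higher and 21.9% lower in this way. The ranges of Sost overlapped, and it had the only negative estimate of the 8 (log2 fold change -0.24, SE 0.200, 95% interval -0.680 to 0.193, adjusted p = 0.397).

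In BALB/c, none of the 8 members was called in either direction by edgeR, while 0.0926% of all genes were called higher and 0.0432% lower. At an unadjusted p under 0.05 there were 2 members, Sost and Pdpn, both lower, beside 4.63% of all genes lower at that p. DESeq2 and limma-voom also called 0 members. All 8 estimates were negative, with a median log2 fold change of -0.19 beside 0 over all genes tested. Spp1 was at 9770, 9921 and 11886 CPM in wild type and at 8628, 9340 and 9084 CPM in mutants. The mutants were lower without overlap, but the log2 fold change of -0.22 (SE 0.122, 95% interval -0.490 to 0.044) had an adjusted p of 0.53. Sost was at 151.2, 96.2 and 136.5 CPM in wild type and at 76.7, 94.0 and 87.9 CPM in mutants. Again the groups were separate, with wild type replicate 14 just above the highest mutant, and a log2 fold change of -0.57 (SE 0.198, 95% interval -1.001 to -0.137, unadjusted p = 0.0141 and adjusted p = 0.291 by edgeR). Pdpn was at 54.8, 53.1 and 54.8 CPM in wild type and at 41.4, 46.0 and 44.3 CPM in mutants. The groups did not overlap (log2 fold change -0.30, SE 0.118, unadjusted p = 0.0249 and adjusted p = 0.344 by edgeR). Of all genes, 10% were lower and 9.93% higher in BALB/c mutants without overlap, beside these 3 members lower and 0 higher.

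The remaining 5 members overlapped between BALB/c genotypes. Dmp1 was at 1341, 1194 and 1031 CPM in wild type and 1068, 1203 and 1207 CPM in mutants. Phex was at 307, 282 and 239 CPM in wild type and 219, 262 and 261 CPM in mutants. For each, replicates 15 and 16 were the lowest of their groups. Ibsp was at 2524, 2104 and 1798 CPM in wild type and 1607, 1759 and 1877 CPM in mutants, of which 1 mutant exceeded the lowest wild type sample. Mepe was at 128.7, 105.3 and 92.5 CPM in wild type and 101.0, 99.1 and 105.7 CPM in mutants. Fam20c was at 85.0, 82.8 and 72.8 CPM in wild type and 81.1, 79.5 and 75.3 CPM in mutants, where the mutants lay inside the wild type range. Dmp1 differed by -0.04 (95% interval -0.319 to 0.248), Fam20c by -0.03 (-0.236 to 0.180), Mepe by -0.09 (-0.320 to 0.133), Phex by -0.16 (-0.469 to 0.151) and Ibsp by -0.29 (-0.684 to 0.096) on the log2 scale. The upper bounds for Dmp1, Fam20c, Mepe and Phex lie under the changes estimated for these genes in C57BL/6.

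The difference between the strains was tested directly, as the genotype effect in BALB/c minus that in C57BL/6. It was negative for all 8 members, with a median of -0.62 beside 0.01 over all genes tested. For 6 members it passed the test: Spp1 (-1.16, SE 0.173, adjusted p = 0.00346), Phex (-0.78, SE 0.201, adjusted p = 0.0345), Dmp1 (-0.66, SE 0.184, adjusted p = 0.0438), Mepe (-0.65, SE 0.148, adjusted p = 0.0224), Pdpn (-0.60, SE 0.168, adjusted p = 0.0438) and Fam20c (-0.49, SE 0.135, adjusted p = 0.0428). Across all genes the difference was called negative for 4.58% and positive for 5.46%. Pdpn passed although neither strain's own effect did, because the estimates lay on opposite sides of 0. Ibsp (-0.50, 95% interval -1.046 to 0.056) and Sost (-0.33, 95% interval -0.938 to 0.288) did not pass.

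Spp1 passed in every refit of this difference, with adjusted p at most 0.0218 in the 7 alternatives and at most 0.0133 when any of the 12 samples was left out. The other 5 calls were close to the threshold. The count fell to 2 when mutant replicate 5 of C57BL/6, wild type replicate 13 or 14 of BALB/c or mutant replicate 18 of BALB/c was left out. It fell to 1 without mutant replicate 6 of C57BL/6 or mutant replicate 16 or 17 of BALB/c. It was 2 with the level of Y-linked genes as a covariate, 2 with libraries scaled by total counts and 4 with no filter on low counts.

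**Figure D2:**
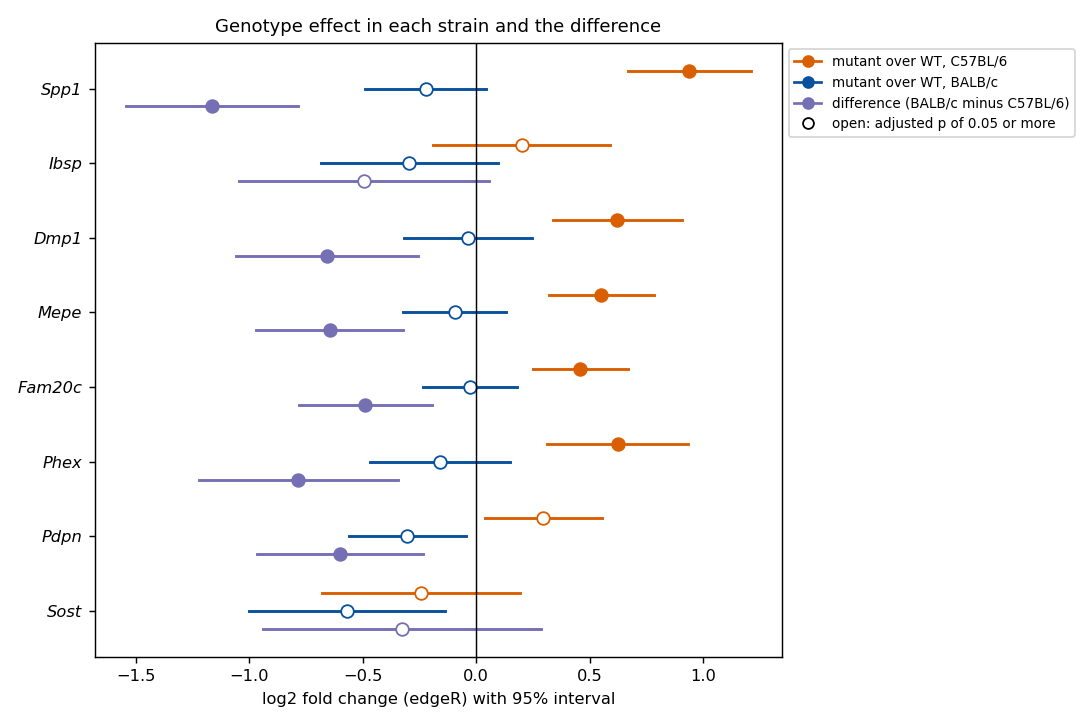
Log2 fold change of mutant over wild type in each strain, and the difference between strains, for the 8 genes (horizontal axis, edgeR estimate with 95% interval); filled points passed an adjusted p of 0.05. In C57BL/6 5 points are filled to the right of 0, in BALB/c none is filled and all lie left of 0, and the difference is filled for 6 genes.

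Markers of other cells moved with the genotype in C57BL/6. Osteoblast markers were called higher for 9 of 10 genes, and their summed level was 107000 to 187000 CPM in wild type and 205000 to 248000 CPM in mutants. Without the 2 collagens it was 1410 to 1920 CPM and 2420 to 2770 CPM. Osteoclast markers were higher for 8 of 8 (2280 to 2790 CPM against 4700 to 5310 CPM), and osteoclasts also make Spp1. Macrophage markers were higher for 2 of 6, and Flt4 was the 1 of 3 tested lymphatic markers called higher (log2 0.32). Markers called lower were 3 of 6 for cartilage (4880 to 7000 CPM in wild type and 262 to 2640 CPM in mutants), 4 of 4 for basal epithelium (8.2 to 197 CPM and 0.269 to 4.65 CPM), 5 of 6 for ciliated epithelium (14.8 to 33.3 CPM and 4.03 to 9.71 CPM) and 4 of 4 for erythroid cells (175 to 238 CPM and 45.9 to 72.7 CPM). Olfactory neuron markers were called in both directions (Gnal lower, -2.05; Adcy3 higher, 0.51), with sums of 191 to 277 CPM in wild type and 130 to 187 CPM in mutants. The part of these cells in the members' changes was not tested. In BALB/c edgeR called 0 genes of any marker list. There, 13 of the 56 marker genes tested had an unadjusted p under 0.05, all higher, beside 7.11% of all genes higher at that p. Among them were 4 of 4 erythroid and 4 of 4 skeletal muscle genes. Skeletal muscle sums were 342, 19.5 and 1.72 CPM in BALB/c mutants 16, 17 and 18. In BALB/c wild type they were 2.18, 5.25 and 4.98 CPM, all above mutant 18. Wild type C57BL/6 replicate 1, the lowest of the 12 samples for every member except Sost, also had the lowest osteoblast sum, 107000 CPM against 184000 and 187000 CPM in replicates 2 and 3, and 1410 CPM against 1900 and 1920 CPM without the collagens.

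The members were therefore also set against osteoblast genes, with libraries scaled on the 10 osteoblast markers. This moved the median of all genes in the C57BL/6 comparison by -0.64 on the log2 scale. On that scale Spp1 remained higher in C57BL/6 mutants (log2 fold change 0.33, adjusted p = 0.0111), as were 0.235% of all genes. Dmp1 (0.02), Phex (0.03), Mepe (-0.06) and Fam20c (-0.15) were no longer called. Sost (-0.85, adjusted p = 0.00182), Ibsp (-0.38, adjusted p = 0.017) and Pdpn (-0.30, adjusted p = 0.0165) were called lower, 3 of 8 members where 74.2% of all genes were called lower, so nothing about these members is read from their calls. The difference between strains was then called for 1 member, Spp1 (-0.58, adjusted p = 0.0218), beside 0.0865% of all genes called negative and 32.5% positive.

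**Figure D3:**
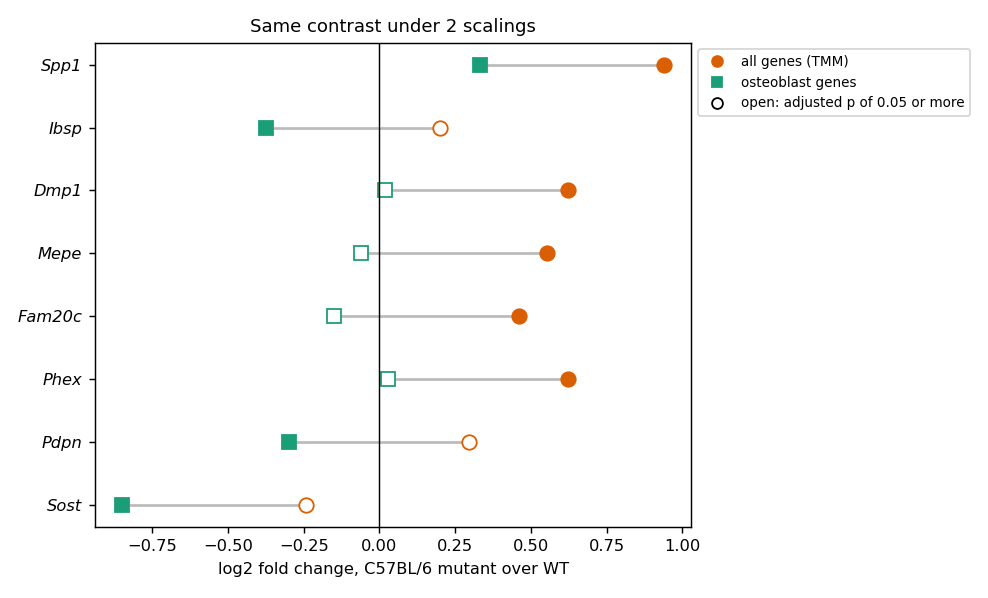
Log2 fold change of C57BL/6 mutant over wild type for each gene with libraries scaled on all genes (circles) and on 10 osteoblast genes (squares); filled symbols passed an adjusted p of 0.05. Every gene shifts left under the second scaling, which called 74.2% of all genes lower, and Spp1 stays right of 0 at 0.33.

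Between wild type strains, 5 of the 8 transcripts were more abundant in BALB/c. Sost (2.16-fold), Mepe (2.02-fold), Spp1 (1.72-fold), Ibsp (1.43-fold) and Pdpn (1.41-fold) were called higher and 0 members lower, beside 22.8% of all genes called higher and 25.6% lower. Mepe had the smallest p of the set (log2 fold change 1.01, SE 0.106, adjusted p = 2.76e-05). Its C57BL/6 wild type samples reached at most 57.3 CPM, while BALB/c wild type was at 92.5 CPM or more. On the log2 scale the differences were 1.11 for Sost (SE 0.201, adjusted p = 0.000967), 0.78 for Spp1 (SE 0.123, adjusted p = 0.000405), 0.52 for Ibsp (SE 0.179, adjusted p = 0.0312) and 0.50 for Pdpn (SE 0.119, adjusted p = 0.00502). Fam20c (0.24, adjusted p = 0.0531; called by limma-voom, adjusted p = 0.0474) and Dmp1 (0.14, adjusted p = 0.401) did not pass. Phex had a log2 fold change of 0.004 (95% interval -0.305 to 0.314). Ibsp was not called without C57BL/6 replicate 1 or without BALB/c replicate 13 or 14, nor with the Y-linked covariate (adjusted p = 0.189) or with only the wild type samples in the fit (adjusted p = 0.0594), and neither Ibsp (0.17) nor Pdpn (0.14) was called with libraries scaled on osteoblast genes, where Phex was called lower (-0.36, adjusted p = 0.0161). Shares of all genes called in each direction are not given for that scaling in this contrast. That scaling moved the median of all genes by -0.41, so nothing about Phex is read from its call. It left Sost (0.75, adjusted p = 0.00226), Mepe (0.63, adjusted p = 0.00373) and Spp1 (0.41, adjusted p = 0.00635) called higher at smaller estimates. These contrasts carry the flow cell as well as the strain. Marker lists moved with them too. BALB/c wild type had 4 of 4 basal epithelium genes lower (0.124 to 0.3 CPM summed, against 8.2 to 197 CPM), 6 of 6 ciliated epithelium genes lower (4.57 to 5.26 CPM against 14.8 to 33.3 CPM), 4 of 4 olfactory neuron genes lower (80.7 to 85.1 CPM against 191 to 277 CPM) and 3 of 6 cartilage genes lower (580 to 1680 CPM against 4880 to 7000 CPM). Of 10 osteoblast genes 2 were higher (Bglap and Bglap2) and 2 lower, with sums of 174000 to 197000 CPM that overlapped those of C57BL/6. Without the collagens the sums were 1950 to 2010 CPM against 1410 to 1920 CPM in C57BL/6. Of 8 osteoclast genes 3 were higher and 1 lower (3110 to 3650 CPM against 2280 to 2790 CPM). Their part in the members' strain differences was not tested.

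In mutants members were called in both directions between strains. Mepe (log2 fold change 0.37, SE 0.104, adjusted p = 0.0163) and Sost (0.79, SE 0.200, adjusted p = 0.0091) were again higher in BALB/c. Phex (-0.78, SE 0.143, adjusted p = 0.00129), Dmp1 (-0.52, SE 0.130, adjusted p = 0.00846) and Spp1 (-0.38, SE 0.122, adjusted p = 0.0291) were lower. That made 2 higher and 3 lower of 8 members, beside 18% of all genes called higher and 18.9% lower. Ibsp, Pdpn and Fam20c did not pass, although Fam20c was called lower by DESeq2 (adjusted p = 0.0368) and with only the mutants in the fit (adjusted p = 0.0189). Spp1 changed sides: of the 4 groups it was lowest in C57BL/6 wild type and highest in C57BL/6 mutants, with both BALB/c groups between them. The Spp1 call was lost when any 1 of the 6 mutant samples was left out (adjusted p 0.058 to 0.0931). It was also lost with libraries scaled by total counts (adjusted p = 0.0529) or on osteoblast genes (adjusted p = 0.241) and with no filter on low counts (adjusted p = 0.0621). The count of calls was 3 without C57BL/6 replicate 6 or BALB/c replicate 18, where the Mepe call was lost as well (edgeR adjusted p at most 0.0544). Marker lists moved here as well. In BALB/c mutants 7 of 8 osteoclast genes were lower (3160 to 3630 CPM summed, against 4700 to 5310 CPM), as were 4 of 6 macrophage genes and 3 of 4 olfactory neuron genes (79.2 to 89.4 CPM against 130 to 187 CPM). Of 10 osteoblast genes 4 were lower and 2 higher (Bglap and Bglap2), with sums of 174000 to 187000 CPM against 205000 to 248000 CPM, and 1890 to 2120 CPM against 2420 to 2770 CPM without the collagens. All 4 erythroid genes were higher (373 to 461 CPM against 45.9 to 72.7 CPM), and so were all 4 skeletal muscle genes (1.72 to 342 CPM against 1.21 to 3.29 CPM). The part of these cells in the 5 member calls was not tested.

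**Figure D4:**
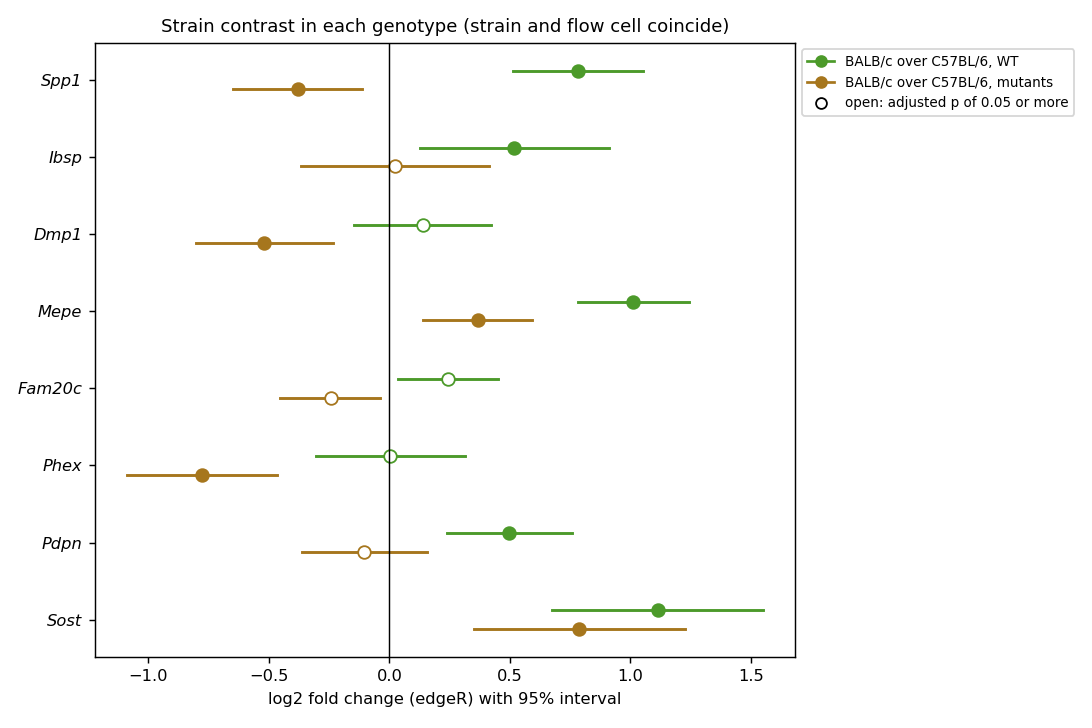
Log2 fold change of BALB/c over C57BL/6 in wild type and in mutants for the 8 genes (horizontal axis, edgeR estimate with 95% interval); filled points passed an adjusted p of 0.05. Mepe and Sost are filled to the right of 0 in both genotypes, whereas Spp1 is filled on the right in wild type and on the left in mutants.

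Ratios within a library do not depend on how libraries are scaled. Each member's count was divided by that of Dmp1 in the same library, a choice made after the levels had been seen, and the ratios share Dmp1 as denominator. With 3 samples against 3, an exact permutation test cannot give a two-sided p below 0.1, so the ratios are described without a test. Of the 7 ratios, 3 separated all 6 BALB/c libraries from all 6 C57BL/6 libraries: Mepe and Sost were higher in BALB/c, beside 5.51% of all other genes tested, and Phex was lower, beside 3.22%. There were 5.53, 4.49 and 5.15 Mepe counts per 100 Dmp1 counts in C57BL/6 wild type and 5.41, 4.34 and 4.59 in C57BL/6 mutants. In BALB/c there were 9.6, 8.82 and 8.98 in wild type and 9.45, 8.24 and 8.76 in mutants. The Mepe ratios of the strains were apart and the genotypes overlapped within each.

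Dmp1 itself rose in C57BL/6 mutants, and 78.5% of all other genes tested had a lower ratio to Dmp1 in C57BL/6 mutants without overlap, and 0.371% a higher one. In BALB/c these shares were 2.58% and 7.26%. The Sost ratio was lower in the mutants of each strain. There were 5.21, 5.34 and 5.84 Sost counts per 100 Dmp1 counts in C57BL/6 wild type and 2.41, 3.26 and 3.28 in C57BL/6 mutants. In BALB/c there were 11.3, 8.06 and 13.2 in wild type and 7.19, 7.82 and 7.28 in mutants. No mutant reached its wild type range. Pdpn and Ibsp had the same pattern. For Pdpn the C57BL/6 ratios were 3.56 ± 0.255 (SD, n = 3) counts per 100 Dmp1 counts for wild type and 2.84 ± 0.0173 (SD, n = 3) for mutants, and the BALB/c ratios were 4.62 ± 0.637 (SD, n = 3) and 3.79 ± 0.106 (SD, n = 3). Ibsp was at 138 ± 22.6 (SD, n = 3) and 103 ± 12.6 (SD, n = 3) in C57BL/6, and at 179 ± 7.57 (SD, n = 3) and 151 ± 5.03 (SD, n = 3) in BALB/c.

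Phex kept the steadiest ratio to Dmp1, 20.5 to 27.0 counts per 100 over the 12 samples. The C57BL/6 genotypes overlapped (25.4 ± 1.4 and 25.5 ± 0.1, SD, n = 3), and BALB/c mutants (21.3 ± 0.7, SD, n = 3) lay below BALB/c wild type (23.2 ± 0.351, SD, n = 3) without overlap. Spp1 and Fam20c overlapped between genotypes in each strain. Of the 7 ratios, BALB/c mutants were lower without overlap in 4 (Sost, Pdpn, Ibsp and Phex), beside 2.58% of all other genes. The 3 in C57BL/6 (Sost, Pdpn and Ibsp) were a smaller share than the 78.5% of all other genes, and nothing about these members is read from them.

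**Figure D5:**
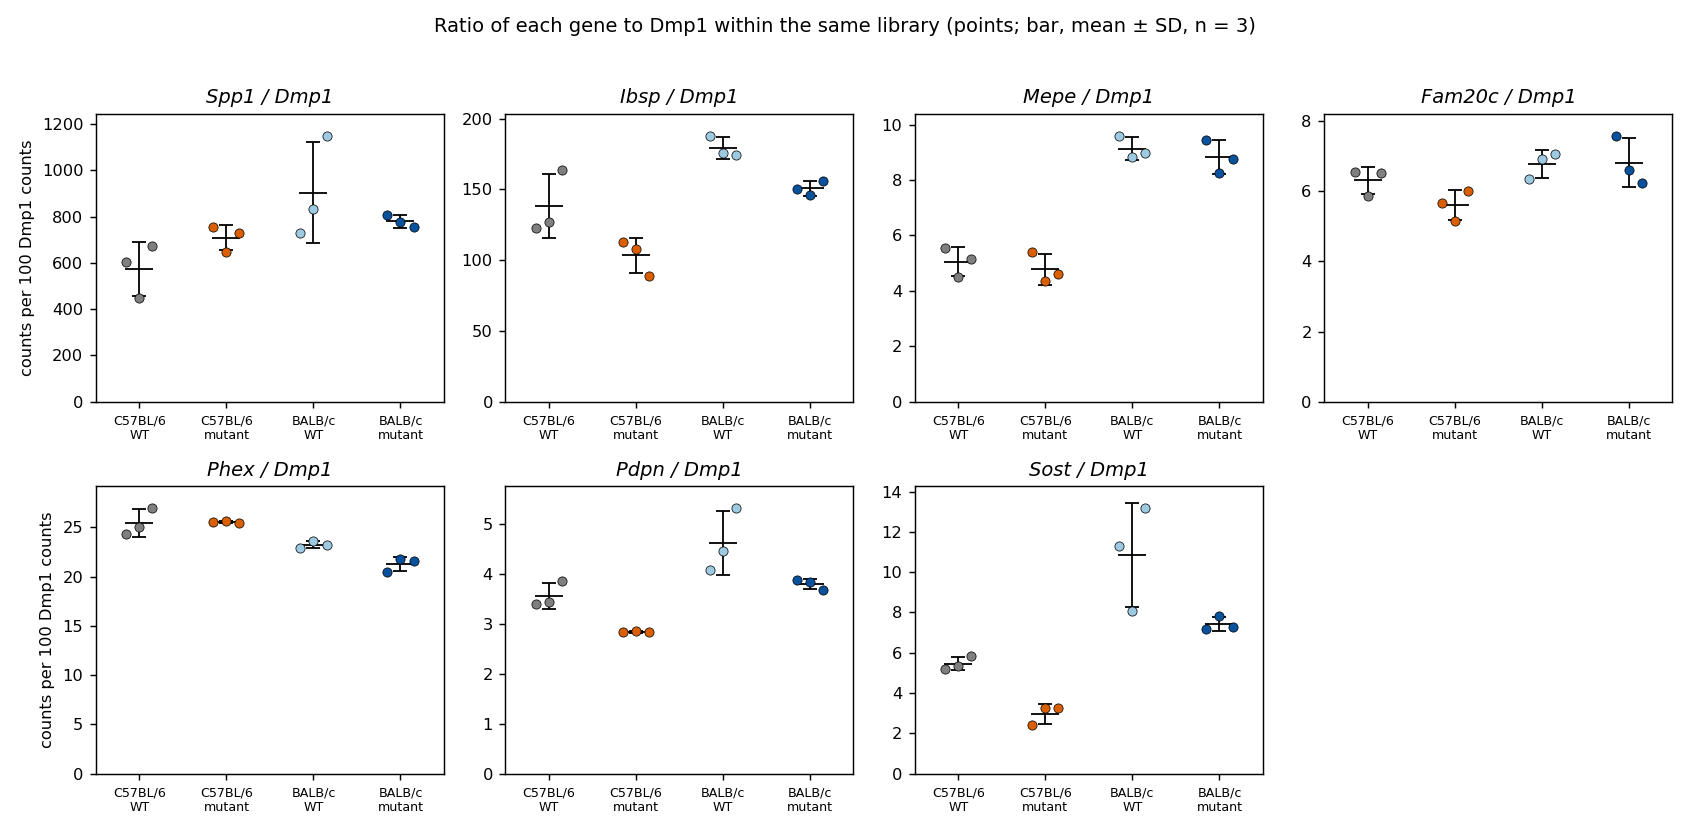
Counts of each gene per 100 Dmp1 counts in the same library (vertical axis from 0); points are samples and bars the mean ± SD (n = 3). The strains separate for Mepe (at most 5.53 in C57BL/6 and at least 8.24 in BALB/c), Sost (at most 5.84 and at least 7.19) and Phex (at least 24.3 and at most 23.6), while the Sost, Pdpn and Ibsp ratios are lower in the mutants of each strain, as were those of 78.5% of all other genes in C57BL/6 and 2.58% in BALB/c.

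Across the 12 samples, Dmp1 and Phex were the pair with the highest Pearson correlation of log2 CPM (0.952, and 0.976 around the group means). Phex and Sost had the lowest over the 12 samples (-0.376), but around the group means their correlation was positive (0.634). The points share libraries and groups, so these are descriptions. Genes outside the set with a mean of at least 10 CPM were ranked by similarity over the 12 samples, with unnamed and predicted genes skipped. The most similar were Fam46a (r = 0.975), Sdc2 (0.971) and Ccny (0.967) for Dmp1, and Ptprd (0.975), Iah1 (0.973) and Elk3 (0.972) for Phex. For Spp1 they were Mvp (0.965), Rpl10 (0.953) and Slc35e4 (0.945), for Ibsp Xbp1 (0.931), Ift20 (0.915) and Tmed9 (0.906), and for Mepe Rftn1 (0.974), Foxc1 (0.973) and Gsdmd (0.969). For Sost they were Tpst1 (0.972), Leprel2 (0.965) and Mmp23 (0.964), for Pdpn Vkorc1 (0.962) and Creb3 (0.962), and for Fam20c Ifngr1 (0.979), Gprc5c (0.974) and Ramp1 (0.963). No gene named here was listed for more than 1 member.

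A list of 30 genes around these proteins (the SIBLING gene Dspp, receptors, processing enzymes and partners, sclerostin's co-receptors and other osteocyte genes) was compared in the same fit. In C57BL/6 mutants 14 of 30 rose and 3 fell, beside 11.3% and 12.6% of all genes. The largest rises were of Mmp9, a matrix metalloproteinase abundant in osteoclasts (log2 fold change 0.97, adjusted p = 0.000207), Itgb3, the beta chain of the integrin through which osteoclasts bind osteopontin (0.87, adjusted p = 0.000791), and Tnfsf11, encoding RANKL, the cytokine that drives osteoclast formation (0.80, adjusted p = 0.00371). By group, 2 of 8 receptors rose (Itgav, Itgb3) and 2 fell (Itga4, -0.36; Itga8, -0.62), and 5 of 9 processing genes rose (Bmp1, Mmp9, Furin, Ctsb, Fam20a). Of the 4 sclerostin-related genes, the co-receptors Lrp4 (0.79) and Lrp5 (0.70) rose and the sclerostin-like antagonist Sostdc1 (-0.89) fell. Of the 8 other osteocyte genes, 5 rose (Galnt3, Capg, Dstn, Mef2c, Tnfsf11). The median of the 30 was 0.27 beside 0 over all genes.

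In BALB/c edgeR called 0 of these 30, and 3 had an unadjusted p under 0.05 (2 higher and 1 lower, beside 7.11% and 4.63% of all genes). The difference between strains was negative for 11, led by Mmp9 (-0.87, adjusted p = 0.00484), Lrp5 (-0.76, adjusted p = 0.00775) and Tnfsf11 (-0.72, adjusted p = 0.0491), and positive for 3, Sostdc1 (1.27, adjusted p = 0.0426), Itga4 (0.94, adjusted p = 0.00604) and Itga8 (0.60, adjusted p = 0.0258), beside 4.58% negative and 5.46% positive over all genes. Between wild type strains 7 of 30 were higher in BALB/c, led by Fam20a, the pseudokinase partner of FAM20C (0.72), Bmp1 (0.48) and Lrp5 (0.37) among genes of at least 1 CPM, and 6 were lower, led by Sostdc1 (-1.41), Itga8 (-0.87) and Lrp6 (-0.49). These shares are close to the 22.8% and 25.6% of all genes, and nothing about the list is read from them. Between mutants 2 were higher (Itga4, 0.55; Fam20a, 0.25) and 13 lower, led by Mmp9 (-0.98), Lrp4 (-0.81) and Cd44 (-0.80), beside 18% and 18.9% of all genes. Fgfr2 itself was higher in C57BL/6 mutants (0.54, adjusted p = 0.00405). In BALB/c it differed by 0.09 (adjusted p = 0.8), and the difference between strains was -0.45 (adjusted p = 0.0638).

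Dspp, the SIBLING gene of dentin, was close to absent. Its counts were 0 in all 3 C57BL/6 wild type samples, 2, 2 and 8 in C57BL/6 mutants, 4, 24 and 18 in BALB/c wild type and 18, 12 and 18 in BALB/c mutants. The wild type contrast passed the test (adjusted p = 0.00208). With all C57BL/6 wild type libraries at 0 and 4 counts in 1 BALB/c library, no fold is given. Among tooth germ markers, Amtn was at 0 in all samples and the 4 markers summed to 4.77 to 7.95 CPM in C57BL/6 wild type, 11 to 16.1 CPM in C57BL/6 mutants, 6.09 to 7.47 CPM in BALB/c wild type and 9.3 to 11.2 CPM in BALB/c mutants. Ambn, an enamel matrix gene and the only one of the 4 abundant enough to test, was called higher in C57BL/6 mutants (log2 1.19, adjusted p = 0.0021) and not in BALB/c (0.51, adjusted p = 0.336). BALB/c mutants still lay above BALB/c wild type without overlap, as did 9.93% of all genes. The difference between strains was not called by edgeR (-0.68, adjusted p = 0.124). Tooth germ cells can also express SIBLING genes, and their part in the members' changes was not tested.

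The genes flanking the SIBLING cluster were compared in the same fit. Of the 3 rows on either side, Gm17660 was too low to test. The other 5, Nudt9, Sparcl1, Pkd2, BC005561 and D930016D06Rik, were not called for genotype in either strain or for the difference. At an unadjusted p under 0.05, 2 of these 5 were called in C57BL/6 (Nudt9 and Pkd2), beside 39.2% of all genes, and 0 in BALB/c. Pkd2, next to Spp1, differed by 0.19 (SE 0.076, adjusted p = 0.0852) in C57BL/6, beside 0.94 for Spp1. Between wild type strains Nudt9 was higher in BALB/c (0.46) and Sparcl1 (-0.30) and D930016D06Rik (-0.77) were lower, beside 22.8% of all genes higher and 25.6% lower. Between mutants Nudt9 was higher (0.23) and D930016D06Rik lower (-0.45) in BALB/c, beside 18% and 18.9% of all genes.

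The authors' deposited table, a separate set of comparisons for the same samples, gave C57BL/6 mutant over wild type log2 values of 0.83 for Spp1 (q = 0.000145), 0.57 for Phex (q = 0.00148), 0.51 for Dmp1 (q = 0.0186), 0.42 for Fam20c (q = 0.00274) and 0.28 for Pdpn (q = 0.0407). In the authors' deposited table Mepe (0.37, q = 0.223) was not under 0.05, whereas it passed in the edgeR fit, and Pdpn was the reverse. For BALB/c, the authors' deposited table had no member with a q under 0.05, the lowest being 0.213 for Pdpn. Between mutants of the 2 strains, as C57BL/6 over BALB/c, the authors' deposited table had q under 0.05 for Phex (0.68, q = 6.38e-05), Dmp1 (0.59, q = 0.00326) and Sost (-0.66, q = 0.0127), but not for Spp1 (0.28, q = 0.247) or Mepe (-0.25, q = 0.412), which edgeR called. Between wild types the same 5 members passed in the authors' deposited table as in the edgeR fit.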

How the data were processed

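The count table came with a whole-number count per gene and sample, an RPKM value and a gene length, as deposited by the authors. Per the submitters' processing notes, which name tools without their roles, bcl2fastq, TopHat2 2.0.6, HTSeq and DESeq2 were used, with build mm10. The strand setting and annotation are not given in the sources used here. No deposited count was odd (0 odd values), so a count of 2 was the smallest step. The deposited RPKM values were used only to compare library totals. The authors' deposited table of group comparisons holds log2 values with p-values and their q-values, quoted where named.

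The members and the gene lists were chosen with earlier results of these data known. Genes were kept with edgeR's filterByExpr (minimum count 10, total 15), scaled by TMM and fitted as 4 group means over all 12 samples with the quasi-likelihood test (edgeR 4.0.16, R 4.3.3). The p-values were adjusted over 16190 genes. Alternatives used DESeq2 1.42.0, limma-voom (limma 3.58.1), other scalings, no filter, only the groups compared, a Y-linked covariate and leaving out each sample. The code was tested on simulated data. Named were all members, per contrast up to 3 called related genes in each direction by fold (mean of at least 1 CPM), Dspp, 3 rows on either side of the cluster and the 3 most similar genes per member, of which 1 is not reported here. Names of co-receptors and groups given beside these were chosen after their values were seen. Of 103 list genes, 102 were matched. The log2 CPM used a prior count of 2.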

Additional observations from a re-analysis of the deposited data

Results flagged for a closer look

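The response to the mutation differed between the strains by the test of the difference itself for 6 of the 8 genes. On the log2 scale, the effect in BALB/c minus that in C57BL/6 was -1.164 for Spp1, -0.783 for Phex, -0.659 for Dmp1, -0.646 for Mepe, -0.600 for Pdpn and -0.488 for Fam20c. Over all genes this difference was called negative for 4.58% and positive for 5.46%. For Spp1 the fold change was 1.92 in C57BL/6 and 0.857 in BALB/c, and for Phex 1.54 and 0.896. The strains were sequenced on different flow cells. Y-linked genes were high in all 3 C57BL/6 wild type samples, but in 1 of 3 in each other group. Spp1 and Mepe were called with the level of Y-linked genes as a covariate, and the other 4 were not. With each of the 12 samples left out in turn, Spp1 was called in 12 of 12 fits and Mepe in 9. Phex and Fam20c were called in 5 each, Pdpn in 4 and Dmp1 in 3. Groups of 3 samples are too small for a test of single samples as outliers, and none was run.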

How the results depend on the processing

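No paired analysis was possible because the groups share no replicate numbers. Scaling on osteoblast genes moved the median of all genes by -0.64 (C57BL/6), 0.62 (difference between strains), -0.41 (strain in wild type) and 0.21 (strain in mutants) on the log2 scale, and total counts by -0.20, 0.23, -0.115 and 0.12. Members called in C57BL/6 (5) became 2 with only the groups compared. For the difference between strains (6), they became 2 with total counts, 1 with osteoblast scaling and 2 with the Y-linked covariate. Over all genes, calls in C57BL/6 (3867) became 12048 with osteoblast scaling and 1458 with only the groups compared. Those in BALB/c (22) became 316 with DESeq2, 44 with limma-voom, 4 with total counts, 0 with osteoblast scaling, 4 with the Y-linked covariate and 71 with only the groups compared. Those of the difference (1626) became 2690 with DESeq2 and 5279 with osteoblast scaling, and those of the strain in mutants (5968) became 3139 with osteoblast scaling.

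With 1 sample left out, calls over all genes ranged from 1724 to 4833 in C57BL/6, 0 to 95 in BALB/c and 624 to 3129 for the difference, where members called ranged from 1 to 6. Members called ranged from 3 to 4 for the strain in mutants. A lone sample was never left in a group.

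Signs turned under osteoblast scaling for Ibsp (-0.376), Mepe (-0.061), Pdpn (-0.299) and Fam20c (-0.150) in C57BL/6, for the difference of Ibsp (0.059), Sost (0.257) and Fam20c (0.104), for Dmp1 (-0.231), Phex (-0.356) and Fam20c (-0.131) between wild type strains and for Pdpn between mutants (0.109). They turned under total counts for Fam20c in BALB/c (0.008), Phex between wild type strains (-0.095) and Pdpn between mutants (0.014). Phex between wild type strains was also negative with DESeq2 (-0.008), RLE size factors (-0.008) and the Y-linked covariate (-0.132), and Ibsp between mutants with that covariate (-0.002). With a sample left out, signs turned in BALB/c for Dmp1 (-0.128 to 0.067; 0.026 without mutant 16), Mepe (0.050 without wild type 13) and Fam20c (-0.093 to 0.022; 0.002 without wild type 14 or mutant 18), for Phex between wild type strains (-0.150 to 0.111, the lowest without C57BL/6 replicate 1; -0.082 and -0.013 without BALB/c 13 and 14) and for Ibsp between mutants (-0.064 to 0.113, the lowest without C57BL/6 replicate 6; -0.031 without BALB/c 18). The cause was not tested. Of the member values, 264 of 312 under other settings and 229 of 288 with a sample left out kept direction and side of the threshold. At these depths the lowest count of any member in any sample was 1134.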
